A study of Mus musculus with 36 samples.

Results

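The genes described here are Kcnj15, Slitrk6, Fam180a, Pla1a, Pdpn, Lrrn4cl, E130114P18Rik and Tnfsf15, a set of 8 of the 23071 named genes in the count files, which were chosen by their RNA counts because earlier results placed them higher in articular cartilage after destabilization of the medial meniscus (DMM) than in control cartilage at both times studied. The members were given by name, each was read from its RefSeq count row with the highest mean count, and the choice set no threshold, so there are no genes just outside it. The difference between limbs in these counts was the reason for the choice and is given below as a description without a test. DMM is a surgical model of post-traumatic osteoarthritis (OA) in which the meniscus is freed and the joint becomes unstable. Male C57BL/6J mice, 12 weeks old at surgery, had DMM in the right knee, and the unoperated left knee of the same animals was the control, so no sham operation stands beside the surgery. Cartilage was microdissected 4 or 12 weeks after surgery, tissue of 3 knees was pooled for each library, and RNA was sequenced from 3 control and 3 DMM libraries at each time. DNA of other mice was profiled by reduced representation oxidative bisulfite sequencing, in which the oxidised (oxBS) library reads 5-methylcytosine (5mC) alone and the unoxidised (BS) library reads 5mC together with 5-hydroxymethylcytosine (5hmC), with 3 control and 3 DMM libraries of each kind at each time.

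These genes do not belong to a single pathway. Kcnj15 encodes an inward rectifier potassium channel subunit, and Slitrk6 a membrane protein with leucine-rich repeats that is best known from neurons and the inner ear. Pla1a is a secreted phospholipase that makes lysophosphatidylserine, a lipid signal, from phosphatidylserine. Pdpn (podoplanin) is a mucin-like membrane glycoprotein of lymphatic endothelium, stromal and synovial fibroblasts and young osteocytes, and it is the ligand of the platelet receptor Clec1b. Tnfsf15 is a cytokine of the tumour necrosis factor family that signals through the receptor Tnfrsf25 to lymphocytes and other cells. Fam180a and Lrrn4cl encode a predicted secreted protein and a predicted membrane protein of little known function. E130114P18Rik is a long non-coding RNA gene on the minus strand that overlaps Nfia, a transcription factor gene on the plus strand, and since no source used here says that reads were counted by strand, reads of the overlap cannot be told apart.

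The sequences below hold the single cytosines with a q under 0.05 described further on, the cytosines just before the start of E130114P18Rik, and a promoter motif. They were read from the RefSeq GRCm38.p6 genome or its promoter table, and are written 5′ to 3′ on the strand of the gene. In the first 4, capitals mark the CG dinucleotides, where 5mC is measured. The stretch of E130114P18Rik lies just before its start at chr4:97584601-97584689, that of Tnfsf15 at chr4:63744801-63745013 covers most of the coding part of the first exon and reaches into the first intron, and those of Fam180a at chr6:35325119-35325292 and of Kcnj15 at chr16:95270172-95270251 are intronic. In the last, capitals mark the AP-1 letters TGANTCA in the 100 bases before the start of Fam180a, at chr6:35326142-35326241.
E130114P18Rik upstream: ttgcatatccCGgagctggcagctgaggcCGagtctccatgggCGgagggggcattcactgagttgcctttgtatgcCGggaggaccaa
Tnfsf15 first exon: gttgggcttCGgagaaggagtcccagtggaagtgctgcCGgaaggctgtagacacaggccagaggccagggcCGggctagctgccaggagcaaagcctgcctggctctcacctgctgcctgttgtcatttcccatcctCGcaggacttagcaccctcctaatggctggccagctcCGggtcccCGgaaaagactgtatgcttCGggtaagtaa
Fam180a intron: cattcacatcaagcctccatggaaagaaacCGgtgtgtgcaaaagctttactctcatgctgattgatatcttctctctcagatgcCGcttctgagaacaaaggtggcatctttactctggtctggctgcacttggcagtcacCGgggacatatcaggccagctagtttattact
Kcnj15 intron: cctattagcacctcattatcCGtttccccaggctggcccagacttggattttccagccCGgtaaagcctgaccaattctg
Fam180a promoter: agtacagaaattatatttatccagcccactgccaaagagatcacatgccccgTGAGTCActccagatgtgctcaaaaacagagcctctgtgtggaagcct

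RNA libraries held 27706547 to 62737656 counts. Levels are given as CPM, counts per 1000000 counts of the library after correction for its composition. In the description of the limbs, all 8 genes had a higher mean in DMM than in control cartilage at both weeks. Every DMM library lay above every control library for 7 of the 8 genes at 4 weeks, where 10.8% of all genes did, and for 6 of the 8 at 12 weeks, where 9.92% of all genes did. Since this contrast chose the genes, nothing is read from these counts. Their median log2 fold change was 1.75 at 4 weeks and 1.56 at 12 weeks, against -0.02 and 0.02 over all genes. Only 5 genes, Kcnj15, Fam180a, Pla1a, Pdpn and E130114P18Rik, had limbs without overlap at both weeks, so the name of a gene raised at both times is not borne out in every library for Slitrk6, Lrrn4cl and Tnfsf15. p-values of the RNA tests and of the permutation tests below measure the spread between libraries of pooled knees, whereas those of single cytosines on summed reads count the sampling of reads only.

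**Figure D1:**
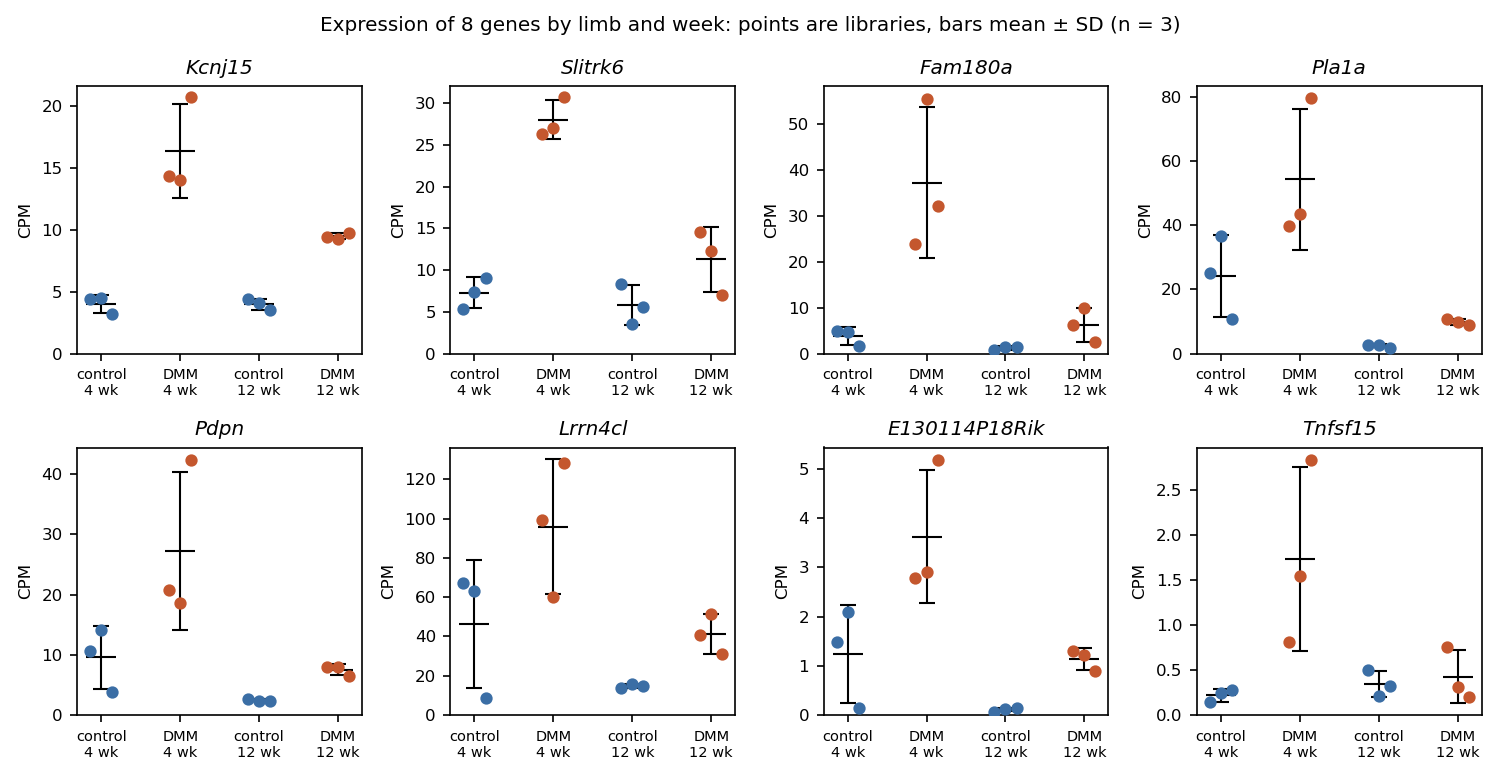
Level of each gene in CPM in every RNA library by limb and week, with bars for the mean ± SD of 3 libraries. The DMM points lie above the control points except for Lrrn4cl at 4 weeks and for Slitrk6 and Tnfsf15 at 12 weeks.

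Kcnj15, the potassium channel gene, stood at 4.38, 4.45 and 3.18 CPM in the control libraries at 4 weeks and at 14.4, 14.0 and 20.8 CPM in the DMM libraries. At 12 weeks the control libraries had 4.38, 4.05 and 3.51 CPM and the DMM libraries 9.44, 9.30 and 9.78 CPM. The limbs did not overlap at either week, and the log2 fold change was 2.03 ± 0.25 (SE) at 4 weeks and 1.26 ± 0.17 at 12 weeks. This gene is counted on 12 RefSeq rows that largely share reads.

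Slitrk6 had 5.36, 7.40 and 9.10 CPM in control and 26.3, 27.1 and 30.7 CPM in DMM libraries at 4 weeks, a log2 fold change of 1.93 ± 0.25. At 12 weeks it had 8.37, 3.52 and 5.63 CPM in control and 14.6, 12.3 and 6.96 CPM in DMM libraries, a log2 fold change of 0.96 ± 0.37. The limbs were well apart at 4 weeks, whereas at 12 weeks DMM replicate 3 fell below control replicate 1.

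Fam180a had the largest fold change of the set at 4 weeks. Its control libraries held 5.01, 4.79 and 1.64 CPM and its DMM libraries 23.9, 55.6 and 32.2 CPM, a log2 fold change of 3.29 ± 0.48. At 12 weeks the values were 0.73, 1.36 and 1.47 CPM in control and 6.18, 9.87 and 2.41 CPM in DMM libraries, with a log2 fold change of 2.37 ± 0.52. DMM replicate 3 was the lowest DMM library at 12 weeks, as it was for Slitrk6, and it still exceeded every control library.

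Pla1a, the lysophosphatidylserine-forming phospholipase, was one of the more abundant members at 4 weeks, with 25.2, 36.5 and 10.8 CPM in control and 39.8, 43.5 and 79.5 CPM in DMM libraries. At 12 weeks control cartilage had 2.73, 2.52 and 1.88 CPM and DMM cartilage 10.8, 9.87 and 8.92 CPM. The highest control library came close to the lowest DMM library at 4 weeks and the limbs were far apart at 12 weeks, with log2 fold changes of 1.17 ± 0.44 and 2.06 ± 0.21.

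Pdpn followed Pla1a. It had 10.7, 14.2 and 3.81 CPM in control and 20.8, 18.6 and 42.4 CPM in DMM libraries at 4 weeks, and 2.63, 2.29 and 2.36 CPM against 8.03, 8.04 and 6.50 CPM at 12 weeks. The log2 fold change was 1.51 ± 0.49 at 4 weeks and 1.64 ± 0.20 at 12 weeks, and in both genes DMM replicate 3 was the highest and control replicate 3 the lowest library of week 4.

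Lrrn4cl was the most abundant member, also per kilobase of transcript, in each of the 4 groups of libraries. At 4 weeks it had 67.0, 63.1 and 8.87 CPM in control and 99.1, 60.1 and 128 CPM in DMM libraries, so that DMM replicate 2 lay below the first 2 control libraries and the log2 fold change of 1.06 ± 0.64 rested on the low control replicate 3. Without that library it was 0.55. At 12 weeks it had 13.9, 15.7 and 14.7 CPM in control and 40.9, 51.7 and 31.1 CPM in DMM libraries, a log2 fold change of 1.49 ± 0.19 without overlap.

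The non-coding RNA E130114P18Rik had 63, 104 and 8 counts (1.48, 2.09 and 0.15 CPM) in control and 96, 128 and 170 counts (2.79, 2.90 and 5.18 CPM) in DMM libraries at 4 weeks. At 12 weeks it had 3, 7 and 5 counts (0.07, 0.11 and 0.14 CPM) in control and 62, 32 and 39 counts (1.31, 1.22 and 0.89 CPM) in DMM libraries. It was close to the limit of detection in control cartilage at 12 weeks, and its log2 fold change of 3.39 ± 0.44 there, the largest of the set at that time, rests on those few reads. At 4 weeks it was 1.56 ± 0.73, and 1.01 without control replicate 3. Nfia, on the opposite strand, had log2 fold changes of 0.39 at 4 weeks (adjusted p = 0.407, edgeR) and 0.43 at 12 weeks (adjusted p = 0.255, edgeR), also without overlap of the limbs.

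Tnfsf15, the cytokine gene, had the lowest mean CPM of the members in each group except control cartilage at 12 weeks, where E130114P18Rik was lower. At 4 weeks it had 6, 12 and 15 counts (0.14, 0.24 and 0.28 CPM) in control and 28, 68 and 93 counts (0.82, 1.54 and 2.83 CPM) in DMM libraries, a log2 fold change of 2.93 ± 0.54. At 12 weeks it had 21, 13 and 12 counts (0.50, 0.21 and 0.33 CPM) in control and 36, 8 and 9 counts (0.76, 0.31 and 0.20 CPM) in DMM libraries. The limbs were apart at 4 weeks and overlapped at 12 weeks, where the log2 fold change was 0.35 ± 0.62 and was -0.45 without DMM replicate 1. Its label as a gene raised at 12 weeks thus rests on a single library.

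Compared per kilobase of transcript, mean levels in control cartilage at 4 weeks ran from 17.8 ± 12.5 CPM per kb (SD, n = 3) for Lrrn4cl through 12.3 ± 6.5 for Pla1a, 5.21 ± 2.87 for Pdpn, 2.49 ± 1.23 for Fam180a, 1.72 ± 0.44 for Slitrk6, 1.005 ± 0.804 for E130114P18Rik and 0.73 ± 0.13 for Kcnj15 to 0.04 ± 0.01 for Tnfsf15. Neighbours in this order overlapped between libraries except for Kcnj15 and Tnfsf15. In DMM cartilage at 12 weeks the order was Lrrn4cl at 15.8 ± 4.0 CPM per kb, Pla1a at 4.99 ± 0.48, Pdpn at 4.09 ± 0.48, Fam180a at 4.02 ± 2.44, Slitrk6 at 2.66 ± 0.92, Kcnj15 at 1.74 ± 0.05, E130114P18Rik at 0.93 ± 0.18 and Tnfsf15 at 0.07 ± 0.05. There Pdpn, Fam180a, Slitrk6 and Kcnj15 overlapped, each with the next, and the other neighbours did not.

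The level of these genes also differed between weeks, a contrast that the choice of genes did not use, although it draws on the same libraries. All 8 genes were lower at 12 than at 4 weeks in DMM cartilage, and 7 of 8 were lower in control cartilage. In DMM cartilage the fall passed the test (edgeR's quasi-likelihood test, adjusted p under 0.05 over all rows) for 6 of 8 genes, and 23.6% of all rows changed there in either direction. Fam180a fell by 2.61 ± 0.54 on the log2 scale (SE, adjusted p = 0.00756, edgeR), Pla1a fell by 2.46 ± 0.39 (adjusted p = 0.00361, edgeR), Tnfsf15 fell by 1.996 ± 0.58 (adjusted p = 0.0286, edgeR) and Pdpn fell by 1.86 ± 0.42 (adjusted p = 0.0109, edgeR). The fall of Tnfsf15 rests on few reads, 28, 68 and 93 counts in DMM libraries at 4 weeks and 36, 8 and 9 at 12 weeks. Slitrk6 fell by 1.32 ± 0.33 (adjusted p = 0.017, edgeR) and Kcnj15 fell by 0.78 ± 0.20 (adjusted p = 0.019, edgeR). For Lrrn4cl the log2 difference of -1.22 ± 0.55 and for E130114P18Rik that of -1.67 ± 0.63 missed the threshold (adjusted p = 0.13 and 0.0754, edgeR), although the weeks did not overlap for either. In a fit of the 6 DMM libraries alone all 8 genes passed, these with an adjusted p of 0.0135 and 0.00984 (edgeR). The count was 2 without DMM replicate 3 of week 4 and 3 without DMM replicate 3 of week 12. The 23.6% belongs to the fit of all 12 libraries. The share of all rows is not given for the other fits, so nothing about the members is read from their counts.

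In control cartilage 3 of 8 genes fell, where 5.69% of all rows changed. Pla1a fell by 3.34 ± 0.41 (adjusted p = 0.00545, edgeR), E130114P18Rik fell by 3.50 ± 0.77 (adjusted p = 0.0254, edgeR) and Pdpn fell by 1.98 ± 0.43 (adjusted p = 0.0237, edgeR). E130114P18Rik had 63, 104 and 8 counts in control libraries at 4 weeks and 3, 7 and 5 at 12 weeks. It passed the filter on low counts only with the DMM libraries, where it was higher. Its test is thus near the limit of detection, and nothing is read from it. Fam180a and Lrrn4cl had log2 differences of -1.68 ± 0.55 and -1.65 ± 0.56 (adjusted p = 0.0863 and 0.0976, edgeR). By contrast, Kcnj15 differed by -0.01 ± 0.21, Slitrk6 by -0.32 ± 0.33 and Tnfsf15 by 0.61 ± 0.62 between weeks in control cartilage, with overlapping libraries. The count was 5 without control replicate 3 of week 4, the library in which Kcnj15, Pla1a, Pdpn, Fam180a, Lrrn4cl and E130114P18Rik were all at their lowest for week 4, 1 without any of the other 5 control libraries, and 0 in a fit of the control libraries alone. The share of all rows is not given for these fits either. Mice of week 12 were also older at dissection, and age, time after surgery and any difference in processing between the weeks cannot be told apart. Sums of cell type markers, listed in the next paragraphs, differed between weeks too. In DMM libraries those of fibroblast and synovium were 3189 to 4442 CPM at 4 weeks and 1101 to 2401 CPM at 12 weeks, those of osteoblasts 7008 to 8020 and 4272 to 5842 CPM, and those of lymphatic and blood endothelium were also lower at 12 weeks without overlap. The neutrophil sums were higher, 17700 to 28350 against 11530 to 17470 CPM, and the other 5 lists overlapped between weeks. In control libraries all 10 lists overlapped between weeks. The part of these cells in the change between weeks was not tested.

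**Figure D2:**
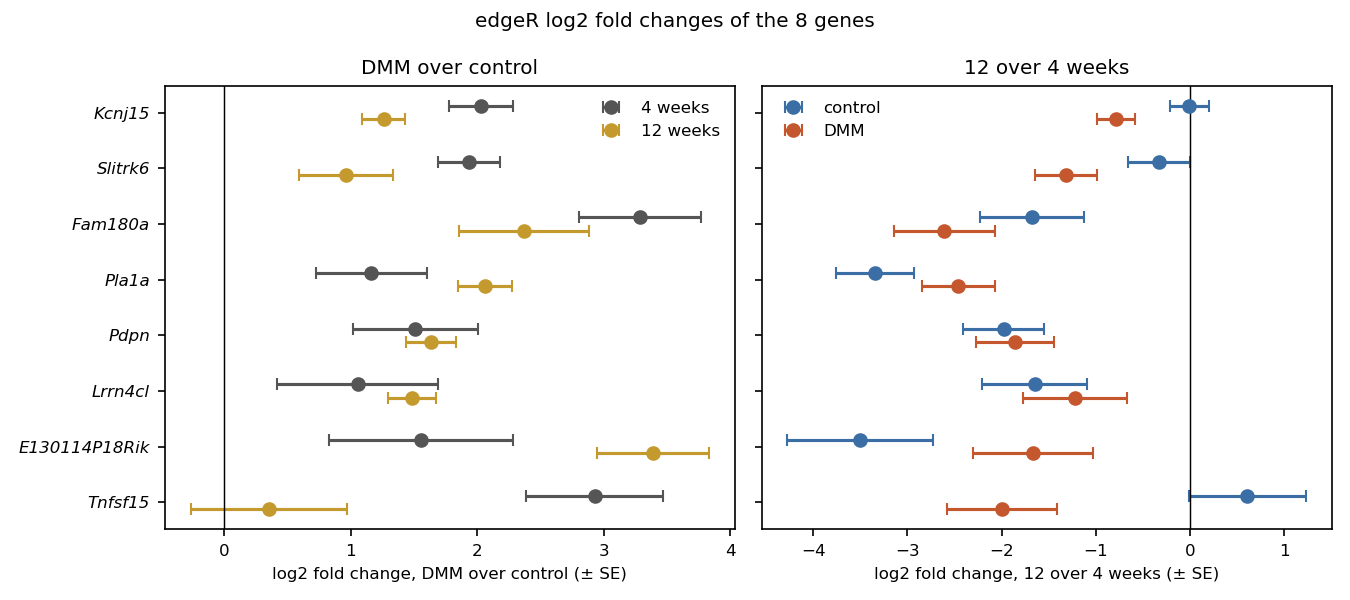
Log2 fold changes ± SE (edgeR) of DMM over control cartilage at each week, on the left, and of 12 over 4 weeks in each limb, on the right. All DMM points on the right lie below 0, whereas the control points of Kcnj15 and Tnfsf15 lie at -0.01 and 0.61.

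Markers of some other cells moved with these genes. The 8 fibroblast and synovium markers (Pdgfra, Thy1, Dpt, Pi16, Clec3b, Cd34, Ly6a and Col3a1) summed to 1605, 2156 and 375.6 CPM in control and 4442, 3189 and 3583 CPM in DMM libraries at 4 weeks, and to 448.9, 413.0 and 687.5 CPM against 2401, 2387 and 1101 CPM at 12 weeks. Their sum was thus higher in DMM cartilage without overlap at both weeks, 7 of 8 of the genes were higher at each week, and control replicate 3 of week 4 had the lowest sum of that week as it did for 6 of the members. That library also had the lowest control sums of the week for tendon, osteoblast, chondrocyte and muscle markers. Its neutrophil, macrophage and erythroid sums were the highest control sums of that week. Among DMM libraries of week 4 the fibroblast sum was highest in replicate 1, whereas Pla1a and Pdpn were highest in replicate 3. None of the 8 fibroblast and synovium markers was at 0 in all libraries of a group. The 6 tendon and ligament markers were all higher at both weeks, with sums of 224.9 to 695.8 CPM in control and 958.7 to 1328 CPM in DMM libraries at 4 weeks and of 246.6 to 455.5 against 723.9 to 1438 CPM at 12 weeks. The 7 osteoblast and osteocyte markers summed to 3413 to 5665 CPM against 7008 to 8020 CPM at 4 weeks and to 2353 to 3592 against 4272 to 5842 CPM at 12 weeks, with 5 and 6 of the 7 genes higher. In bulk tissue, more cells of a type and more RNA per cell cannot be told apart, and the part of these cells in the members' levels was not tested.

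Lymphatic endothelium is a known source of podoplanin, as fibroblasts and young osteocytes are, and its 5 markers (Lyve1, Prox1, Flt4, Mmrn1 and Reln) did not separate the limbs by their sum. They summed to 55.8 to 101.9 CPM in control and 91.2 to 137.5 CPM in DMM libraries at 4 weeks, and to 30.6 to 70.9 against 28.1 to 41.2 CPM at 12 weeks. At 4 weeks 4 of the 5 genes were higher after DMM, with a median log2 fold change of 0.42 and 0 without overlap. At 12 weeks 1 of 4 genes tested was higher, with a median of -0.83, and of the 5 genes 1 was higher and 1 lower without overlap. The part of these cells in the level of Pdpn was not tested. The tissue had the markers of cartilage in every library, with the 9 chondrocyte genes (such as Acan, Col2a1 and Sox9) summing to 2083 to 7022 CPM. It was not cartilage alone. The 6 neutrophil markers summed to 7757 to 36550 CPM, more than the chondrocyte genes in every library. The 7 osteoblast and osteocyte markers summed to 2353 to 8020 CPM. The share of each cell type was not tested. The chondrocyte sums overlapped between limbs at 4 weeks, where 2 of the 9 genes had a higher mean after DMM and the median log2 fold change was -0.81. The sums were higher in DMM cartilage at 12 weeks, 4766 to 7022 against 2083 to 4523 CPM, with all 9 genes higher. Skeletal muscle genes were lower in DMM libraries at 4 weeks, 430.3 to 2606 against 4501 to 16310 CPM, with all 10 genes lower, and they overlapped at 12 weeks. Their part was not tested either. Among the other lists, the macrophage and erythroid sums were lower in DMM cartilage at 12 weeks, and those of blood endothelium and neutrophils overlapped between limbs at both weeks.

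**Figure D3:**
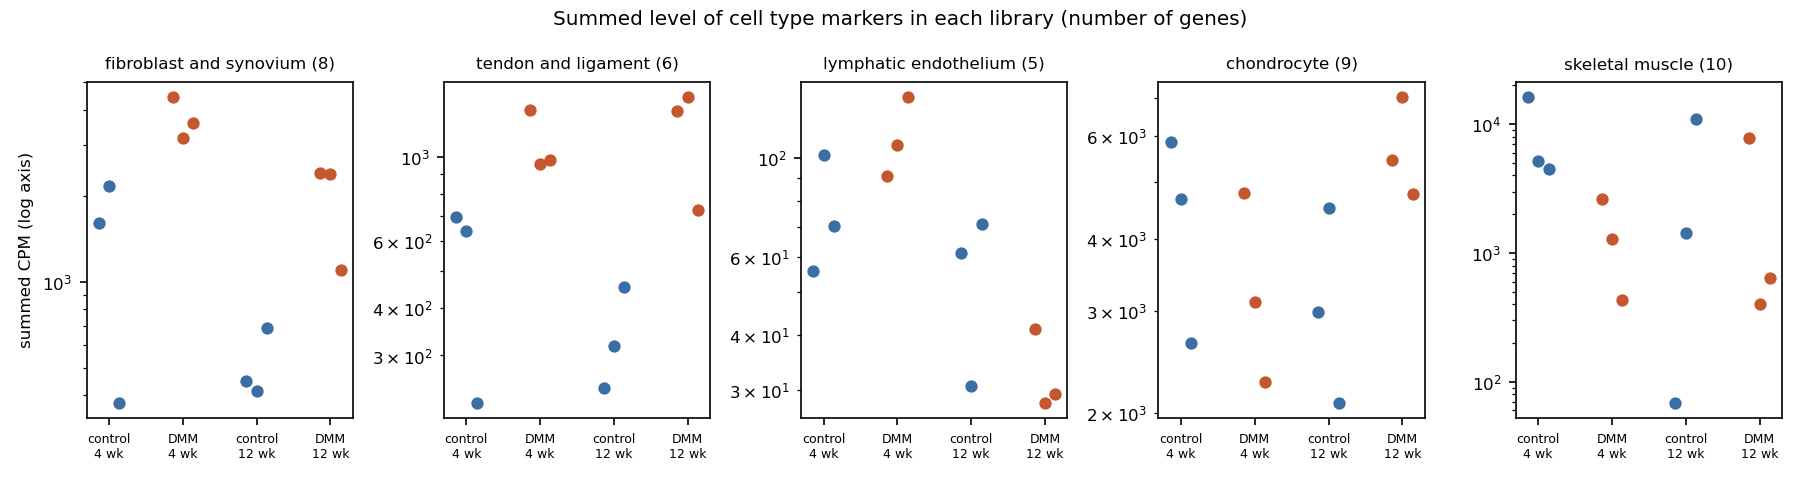
Summed CPM, on log axes, of 5 lists of cell type markers in every RNA library by limb and week. Fibroblast and tendon markers lie higher in every DMM library of a week, the lymphatic markers overlap, and control replicate 3 of week 4 is low in the first 2 panels. It is also the lowest control library of that week for chondrocyte and muscle markers.

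The genes whose profile was most like that of the members were compared over the 12 libraries, as Pearson's r with the mean standardised log2 profile of the set among 13571 genes, and these libraries fall into 4 groups, so r mostly follows the group means. The 10 genes at the top were Lum, Gulp1, Mmp19, Ly6a, Antxr1, Ly6c1, Akr1b8, Agmo, Lnx1 and Lrrc17, with r from 0.97 to 0.99. Lum, which encodes the collagen-binding proteoglycan lumican, had means of 622 and 2992 CPM in control and DMM cartilage at 4 weeks and of 303 and 964 CPM at 12 weeks. Mmp19, a matrix metalloproteinase, had 6.84 and 14.9 CPM at 4 weeks and 5.03 and 8.54 CPM at 12 weeks. Lrrc17, a secreted leucine-rich repeat protein, had 9.33 and 31.3 CPM and then 2.19 and 7.70 CPM, and Antxr1, a receptor of collagen and anthrax toxin, 13.1 and 46.0 CPM and then 8.28 and 21.8 CPM. Ly6a is also on the fibroblast list.

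Channels, receptors, enzymes and binding partners of the members' families were compared in the same way, as a list of 72 genes of which 53 passed the filter on low counts at each week. None was called by edgeR at either week, where 0.0757% of all rows were called at 4 weeks and 0.00476% at 12 weeks, and 9 and 7 of them had an unadjusted p under 0.05, as had 13.5% and 16% of all genes. DESeq2, the less strict tool here, called 3.54% of all rows at 4 weeks and 4.33% at 12 weeks, and 3 and 2 of the partner genes. Fold changes below are those of edgeR.

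Among the lysophosphatidylserine genes, the receptor Gpr34 was higher after DMM at 4 weeks in the DESeq2 fit, with means of 18.8 and 58.7 CPM and a log2 fold change of 1.64 ± 0.37 (adjusted p = 0.0025 with DESeq2 and 0.236 with edgeR). Its limbs did not overlap, whereas at 12 weeks they did, with 5.17 and 6.48 CPM and a log2 fold change of 0.34 ± 0.26. Lipg, an endothelial lipase of the same family as Pla1a, was lower at 12 weeks, with 5.29 and 2.14 CPM and a log2 fold change of -1.28 ± 0.36 (adjusted p = 0.0248 with DESeq2 and 0.224 with edgeR), and had -0.80 ± 0.52 with overlap at 4 weeks. Of the 9 tested genes of this list, 5 had a higher mean in DMM cartilage at 4 weeks and 3 at 12 weeks.

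Of the other inward rectifier channels, 7 passed the filter on low counts at 4 weeks and 1 of these had a higher mean after DMM, Kcnj16, with a log2 fold change of 0.03. Kcnj11 and Kcnj12, which are also channels of skeletal muscle, were lower in the DESeq2 fit, with log2 fold changes of -2.26 ± 0.75 and -2.55 ± 0.82 (adjusted p = 0.046 and 0.0202 with DESeq2, 0.304 and 0.3 with edgeR). Their limbs overlapped, and the muscle markers were lower in the same libraries. At 12 weeks they had log2 fold changes of 0.06 ± 1.46 and 0.19 ± 1.58, with overlap. At 12 weeks Kcnj5 was lower, with 6.19 and 2.43 CPM and a log2 fold change of -1.32 ± 0.42 (adjusted p = 0.0423 with DESeq2 and 0.252 with edgeR), without overlap, and it had -0.37 ± 0.40 with overlap at 4 weeks.

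None of the partners of Pdpn, Slitrk6, Lrrn4cl or Tnfsf15 passed with either tool. At 4 weeks 9 of 10 partners of Pdpn had a higher mean after DMM, with a median log2 fold change of 0.31 against -0.02 over all genes, and 4 of 10 did at 12 weeks, with a median of -0.03 against 0.02. Cd44, a hyaluronan receptor that binds podoplanin, had 178 and 279 CPM and a log2 fold change of 0.64 ± 0.23 at 4 weeks (adjusted p = 0.32, edgeR), and the platelet receptor Clec1b 18.1 and 19.3 CPM (adjusted p = 0.938, edgeR). The receptor of Tnfsf15, Tnfrsf25, had 0.42 and 0.18 CPM at 4 weeks (adjusted p = 0.409, edgeR), and Tnfsf11, the osteoclast factor RANKL, 5.98 and 9.23 CPM (adjusted p = 0.322, edgeR). The Slitrk-binding phosphatase Ptprd had 15.8 and 30.7 CPM at 4 weeks (log2 fold change 0.95 ± 0.28, adjusted p = 0.276, edgeR) without overlap, and 15.8 and 15.2 CPM with overlap at 12 weeks (log2 fold change -0.05 ± 0.23), whereas the other Slitrk genes were too low to be tested. Of 55 partners in the test of the difference between weeks, none passed (lowest adjusted p = 0.405, edgeR interaction term), as 0% of all rows did, and 8 had an unadjusted p under 0.05, as had 11.9% of all genes.

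DNA methylation is a measure that did not enter the choice of these genes. The oxBS libraries had median coverages of 22.0 to 102 reads per CpG cytosine at 4 weeks and 28.0 to 72.0 at 12 weeks. A window was the gene and 5 kb around it, and 6 of the 8 genes had cytosines with a coverage of 10 or more in each oxBS library of a week, 116 at 4 weeks and 110 at 12 weeks, whereas Slitrk6 and Lrrn4cl had none. All 122 distinct positions were the C of a CG in GRCm38. The mean 5mC of all 6 windows was lower after DMM at both weeks, as was that of 74.6% of all gene windows at 4 weeks and 73.9% at 12 weeks. At 12 weeks the limbs did not overlap in 4 of the 6 windows, where 30.4% of all gene windows did not overlap, 4724 of them lower and 732 higher in DMM cartilage. Over the gene bodies alone, without the flanks, Fam180a and E130114P18Rik had fewer than 5 cytosines, and the limbs did not overlap in 1 of the other 4 at 12 weeks, where 27.7% of all gene bodies did not overlap. At 4 weeks they did not overlap in 0 of the 6, where 8.45% of all gene windows did not. The median difference over the 6 windows was -6.63 percentage points at 4 weeks and -6.05 points at 12 weeks, against -0.33 and -0.41 points over all gene windows. Over all cytosines tested the library means were also lower in DMM cartilage, 26.8% against 27.5% at 4 weeks and 29.1% against 30.005% at 12 weeks.

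Tnfsf15 had the largest difference at 12 weeks. Over its 12 cytosines the 5mC level was 34.0%, 31.5% and 36.1% in control and 18.4%, 20.9% and 21.7% in DMM libraries, a difference of -13.6 points without overlap (p = 0.1, two-sided exact permutation test, the smallest p that 3 against 3 libraries allow). At 4 weeks it was 33.9%, 15.0% and 27.4% in control and 19.8%, 13.8% and 20.1% in DMM libraries, -7.54 points with overlap (exact permutation p = 0.3). At 12 weeks this gene was thus the member with the largest difference in 5mC and the smallest fold change in RNA.

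E130114P18Rik, over 10 cytosines, had 52.6%, 54.4% and 50.7% in control and 46.0%, 43.9% and 41.4% in DMM libraries at 12 weeks, a difference of -8.78 points without overlap (exact permutation p = 0.1). At 4 weeks it had 53.7%, 30.7% and 46.3% against 37.8%, 27.2% and 31.6%, -11.4 points with overlap (exact permutation p = 0.3). Fam180a, over 11 cytosines, had 75.2%, 75.6% and 73.8% in control and 65.1%, 70.3% and 65.5% in DMM libraries at 12 weeks, -7.86 points without overlap (exact permutation p = 0.1). At 4 weeks it had 78.5%, 59.1% and 67.8% against 60.7%, 52.5% and 60.4%, -10.6 points (exact permutation p = 0.3). In all 6 windows control replicate 2 of week 4 was the lowest control library of that week. It was also the lowest over all cytosines tested, with a mean of 26.8% against 28.4% and 27.4% in the other control libraries. Without it the limbs did not overlap in 4 of the 6 windows, and in 42.5% of all gene windows. That library was also the deepest of the week, with a median of 146.5 reads at the member cytosines against 26.0 to 119.0 in the others.

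Pla1a had a smaller difference, with 75.0%, 78.4% and 73.5% in control and 73.2%, 70.2% and 72.1% in DMM libraries over 21 cytosines at 12 weeks, -3.81 points without overlap (exact permutation p = 0.1), and -3.07 points over 22 cytosines at 4 weeks (exact permutation p = 0.5). In Kcnj15 the difference was -5.71 points over 27 cytosines at 4 weeks and -4.24 points over 20 at 12 weeks (exact permutation p = 0.2 at both), with means of 49.7% and 44.0% and then 60.6% and 56.4%. Pdpn had 29.0% and 26.9% at 4 weeks and 32.6% and 30.7% at 12 weeks, -2.10 and -1.84 points over 34 and 36 cytosines (exact permutation p = 0.6 and 0.3). The limbs overlapped in Kcnj15 and Pdpn at both weeks. The exact permutation test of a difference between weeks in the DMM effect, over 12 libraries, passed in no window (p from 0.485 to 0.83, adjusted p = 0.83 for each).

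**Figure D4:**
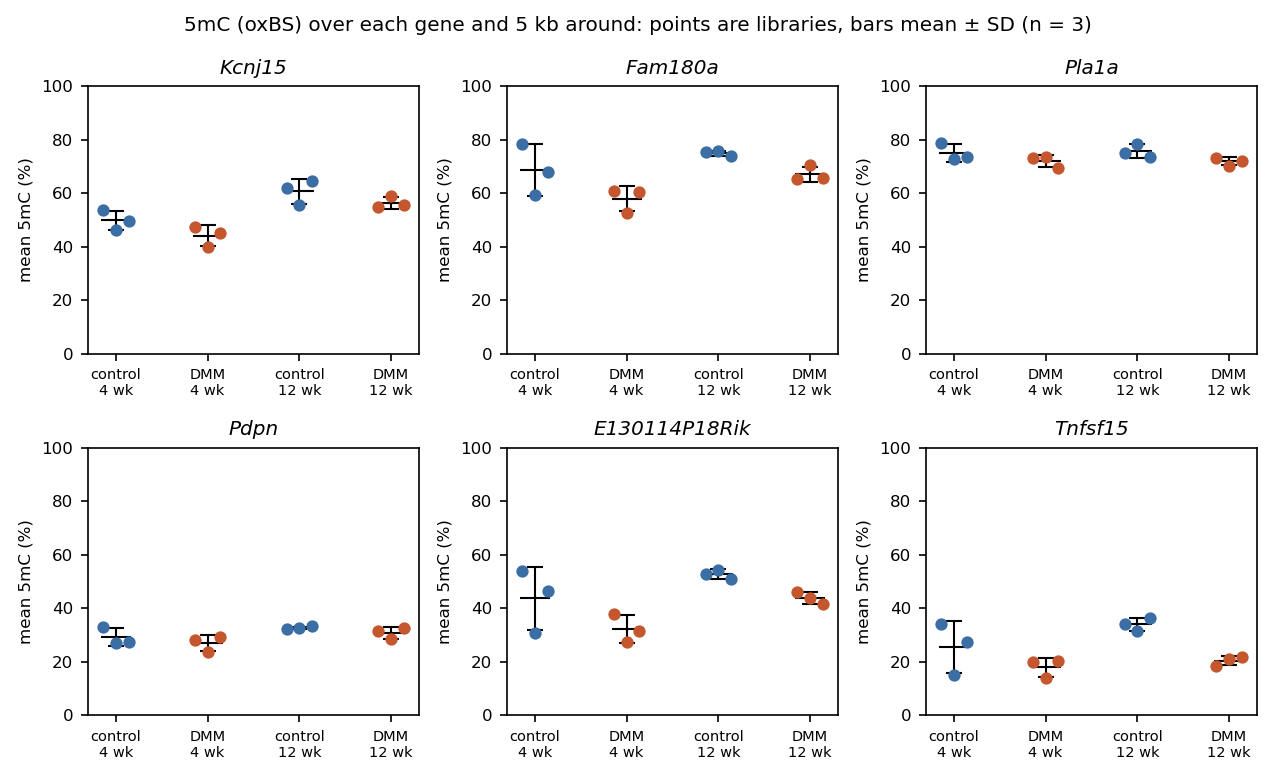
Mean 5mC in percent over each gene and 5 kb around it, in every oxBS library by limb and week, with bars for the mean ± SD of 3 libraries. At 12 weeks the DMM points of Fam180a, Pla1a, E130114P18Rik and Tnfsf15 lie below all control points, and at 4 weeks no window separates the limbs.

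The windows of the cell type markers are given beside these. RNA sums of the fibroblast, tendon and osteoblast lists were higher after DMM at both weeks, as the means of the members were. Those of the other lists were not higher at both weeks. At 12 weeks the 7 measurable fibroblast and synovium windows had a median difference of -3.09 points. Of these 4 were lower, all 4 without overlap, and the others were not lower. The 4 tendon windows had -3.76 points, with 3 lower, all 3 without overlap. The 6 osteoblast windows had -3.41 points, with 5 lower, 3 of them without overlap. Chondrocyte windows, 9 of them, had -0.83 points, with 8 lower, 1 of them without overlap. Skeletal muscle windows, 10 of them, had -2.85 points, with all 10 lower, 5 of them without overlap. Of all gene windows 4724 of 17942 were lower without overlap. At 4 weeks the medians were -1.67 points for fibroblast, -2.14 for tendon, -3.44 for osteoblast, -2.04 for chondrocyte and -1.49 for muscle windows. Lower without overlap at 4 weeks were 0 fibroblast, 0 tendon, 2 osteoblast, 2 chondrocyte and 1 muscle windows, and 1145 of 18034 of all gene windows. Of the other lists at 12 weeks, blood endothelium had 0.38 points, lymphatic endothelium -0.91, macrophage -0.81, neutrophil 1.66 and erythroid -0.60. The part of a different mix of cells in the 5mC of the members was not tested.

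No single cytosine of the members was called at a difference of 25 points and q under 0.05, at either week. Of all cytosines tested, 0.000554% were called at 4 weeks and 0.227% at 12 weeks (logistic model of the limb on the summed reads, likelihood ratio test, with Benjamini-Hochberg adjustment over all cytosines). By q alone, at any difference, 0 member cytosines passed at 4 weeks, where 0.0186% of all did, and 5 passed at 12 weeks, where 1.11% did, all lower in DMM cartilage. The unadjusted p was under 0.05 at 18 of the 116 cytosines at 4 weeks and at 36 of 110 at 12 weeks, 15.5% and 32.7% of them against 8.02% and 9.43% of all cytosines, and all 36 were lower in DMM cartilage. Without control replicate 2 of week 4, 3 cytosines were called at 4 weeks, where 0.21% of all were, and without control replicate 1 or control replicate 2 of week 12, 1 was called at 12 weeks, where 0.26% and 0.411% of all were. With a correction for overdispersion, which counts the spread between libraries, none had q under 0.05, and 1 at 4 weeks and 8 at 12 weeks had an unadjusted p under 0.05, 0.862% and 7.27% of them against 0.567% and 1.97% of all cytosines.

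The limbs did not overlap at 11 lower and 2 higher of the 116 member cytosines at 4 weeks, where 3.74% of all cytosines were lower and 2.39% higher without overlap. At 12 weeks they did not overlap at 21 lower and 1 higher of the 110, where 5.57% of all were lower and 2.54% higher without overlap. A lower mean in DMM cartilage was found at 88 of 116 and 84 of 110 member cytosines, and at 52.6% and 44.7% of all. Neither all cytosines nor all gene windows were matched to the members by their level of 5mC, here or above. A cytosine near 0% in control cartilage has no room to fall. Control means of the member windows were 25.4% to 75.0% at 4 weeks and 32.6% to 75.6% at 12 weeks. Over all cytosines they were 27.5% and 30.005%. Cytosines of a window lie close together, and some are the 2 strands of 1 CpG.

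Of the 5 cytosines that passed by q alone, 3 lie in the first exon of Tnfsf15 printed above, at 85, 185 and 222 bases after the gene start. At the first of these the 5mC level at 12 weeks was 39.1%, 16.0% and 30.4% in control and 5.41%, 15.0% and 16.7% in DMM libraries (pooled difference -21.2 points, q = 0.0145). At the last it was 27.2%, 18.8% and 38.3% against 11.6%, 18.8% and 8.64% (-16.9 points, q = 0.00272), and at the middle one the difference was -13.7 points (q = 0.0313). The libraries overlapped at each of the 3. Elsewhere in that stretch the limbs did not overlap at the cytosines at 56, 229 and 248 bases. At 229 bases the 5mC level was 27.1%, 40.6% and 28.8% in control and 14.5%, 16.0% and 22.03% in DMM libraries. All 12 cytosines of the Tnfsf15 window were lower in DMM cartilage at 12 weeks, 6 of them without overlap. Of all cytosines 44.7% had a lower mean there and 5.57% were lower without overlap.

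The other 2 were intronic. At the Fam180a cytosine 879 bases after the start, at position 35325262 of chromosome 6, 5mC at 12 weeks was 29.4%, 58.1% and 38.9% in control and 15.4%, 17.9% and 14.5% in DMM libraries (-22.9 points, q = 0.00207), without overlap. At 4 weeks the same cytosine had 43.7%, 23.8% and 11.8% against 23.8%, 17.4% and 8.05%, with overlap. At the Kcnj15 cytosine 12673 bases after the start, 5mC at 12 weeks was 52.9%, 35.1% and 54.2% against 25.9%, 47.9% and 29.5% (-18.2 points, q = 0.0313), and DMM replicate 2 lay within the control libraries. At E130114P18Rik the limbs did not overlap at the cytosines 20, 54 and 68 bases before the start at 12 weeks, and overlapped at those 55, 69 and 88 bases before it. The one at 68 bases had 47.1%, 51.5% and 51.4% in control and 34.8%, 32.7% and 29.5% in DMM libraries (-16.6 points, q = 0.155).

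**Figure D5:**
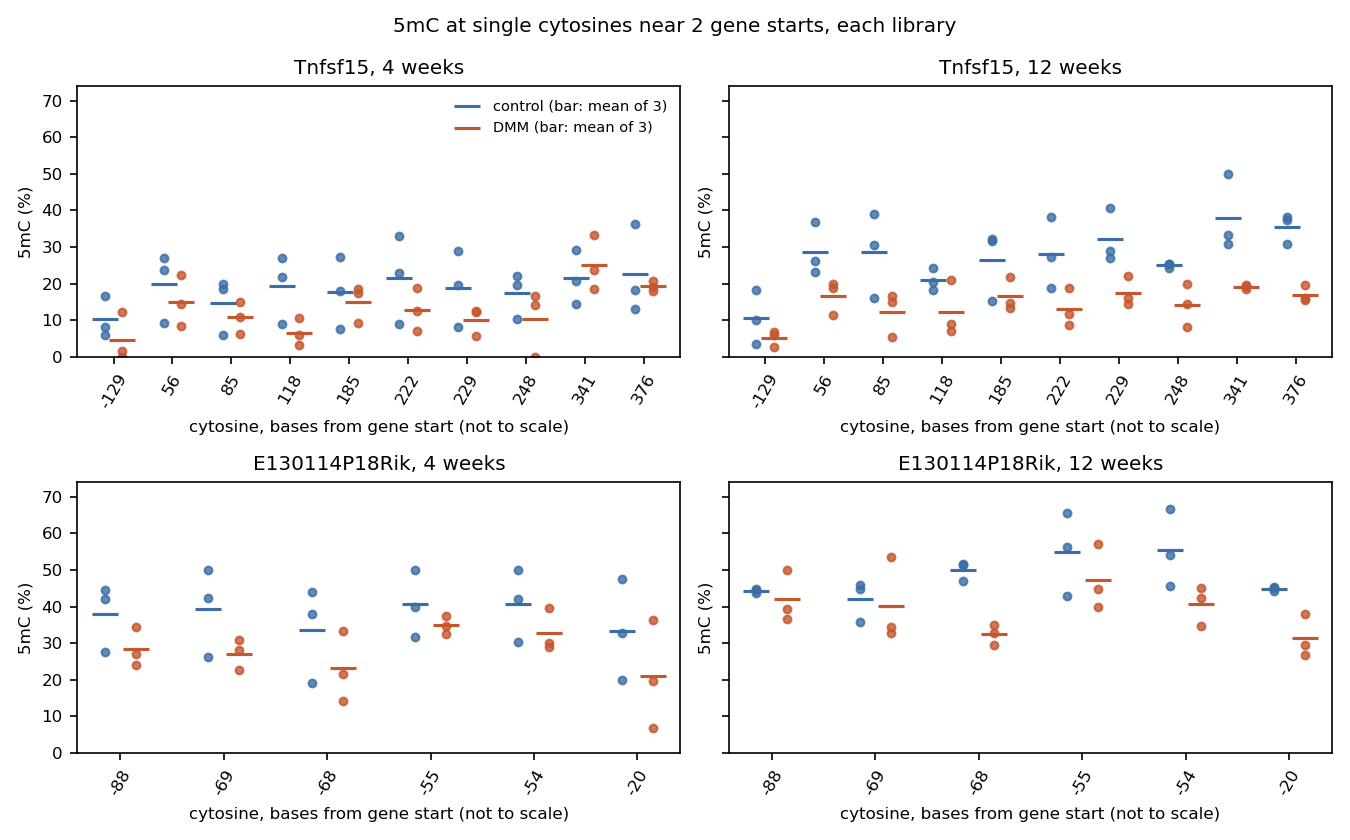
5mC in percent at single cytosines near the starts of Tnfsf15 and E130114P18Rik in every oxBS library at 4 and 12 weeks, labelled by the distance in bases from the gene start, with a bar for the mean of 3 libraries of a limb. At 12 weeks the DMM mean lies below the control mean at every cytosine shown, and at 4 weeks the libraries overlap throughout.

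The 5hmC level, as BS minus oxBS in percentage points with negative values kept, had limb means over the 6 windows from 0.57 to 13.9 points at 4 weeks and from 0.18 to 6.74 points at 12 weeks. At 4 weeks the DMM minus control difference was 5.5 points in Fam180a, 3.9 in Kcnj15, 2.3 in E130114P18Rik, 1.9 in Pla1a, 1.5 in Pdpn and -2.3 in Tnfsf15 (exact permutation p from 0.2 to 0.7). The limbs overlapped in every window at 4 weeks and in 5 of 6 at 12 weeks, where 8.84% and 14.6% of all gene windows did not overlap. Pdpn was the exception, with 4.20, 2.19 and 1.54 points in control and 4.22, 5.87 and 4.67 points in DMM libraries over 36 cytosines, a difference of 2.27 points (exact permutation p = 0.1). The lowest DMM value and the highest control value were close, and the difference was 0.77 points over cytosines with at least 20 reads. The name of the deposited BS data of DMM replicate 1 gives another replicate number than its label, and without that replicate the Pdpn difference was 2.62 points. At Tnfsf15 the difference in 5hmC at 12 weeks was 1.29 points (exact permutation p = 0.5) beside the -13.6 points of 5mC.

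Promoters of 6 of the 8 members were matched by symbol, and the 250 bases before each start, as the promoter table gives it, were searched on both strands. Pla1a and Lrrn4cl were not matched. The AP-1 letters TGANTCA stood at 48 to 42 bases before the start of Fam180a and at 18 to 12 bases before that of Slitrk6, in 2 of 6 members against 6.75% of all 32851 promoters. The start of Slitrk6 in the table is that of its curated transcript, and a predicted transcript begins further upstream, so that the letters lie inside the annotated gene. The E-box letters CANNTG were in 6 of 6 members and in 66.2% of promoters. The GC box GGGCGG was found only at E130114P18Rik, 58 to 53 bases before its start, among the cytosines described above, and in 32.7% of promoters. The NF-kB motif stood 220 to 211 bases before Pdpn (4.11% of promoters), the TEAD letters GGAATG before Tnfsf15 (12.6%) and the CEBP letters TTGCNNAA before Slitrk6 (9.56%). The letters for CRE (TGACGTCA, 1.55%), RUNX (TGTGGT, 14%), STAT (TTCNNNGAA, 7.02%) and the core promoter box (TATAAA, 12.4%) were in none of the 6. CG dinucleotides numbered from 1 in the 250 bases before Kcnj15 and 2 before Pdpn, where 7.87% and 18.8% of all promoters held fewer, to 7 before Fam180a and E130114P18Rik, where 53.7% held fewer.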

How the data were processed

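Mouse knee cartilage RNA (12 libraries) and DNA (12 oxBS and 12 BS libraries) were analysed. Per the labels and the study's methods, the authors aligned RNA reads with STAR to mm10 and used featureCounts for RefSeq transcripts. The labels describe poly(A) libraries and the methods full-length cDNA made from total RNA. The deposited counts are raw. Methylation calls are the authors' own, and Bismark and CASAVA 2.17 are named in the submitters' processing notes. For each CpG cytosine the authors deposited counts of covering reads, never under 10, and the percent of reads with C and T.

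Members and gene lists were chosen with earlier results of these data known. The text names the 8 members, partner genes with an adjusted p under 0.05 by edgeR or DESeq2 and otherwise those with the largest change of each list, the 10 genes most like the members, the nearest tested genes, and the cytosines with the smallest p. Some examples were added after their values were seen. Limbs were compared within each week, and weeks in a fit of all 12 libraries, with edgeR 4.0.16 in R 4.3.3 (TMM, filter on low counts, quasi-likelihood test, Benjamini-Hochberg). CPM used TMM factors over the 12 libraries. Cytosines with a coverage of 10 or more in every oxBS library of a week were tested by a likelihood ratio test in Python 3.11.15 with scipy 1.17.1, and windows of at least 5 such cytosines by exact permutation tests. Depth sets the precision of single cytosines, and reads carry no molecular identifiers. Tested on simulated data, the likelihood ratio test recovered 199 and 196 of 200 cytosines lowered by 40 points among 50000 at 4 and 12 weeks. The largest pooled difference at a member cytosine was -22.9 points, so this does not show how well changes of the size described here are found. DESeq2 1.42.0, other filters and scalings, coverage of 20, merged strands, gene bodies alone, the replicate number as a block and leaving out each library were alternatives. The 12-week DNA libraries with another title style, 1 per limb, were left out as an alternative chosen after seeing the data.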

Additional observations from a re-analysis of the deposited data

How the results depend on the processing

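The counts of members whose limbs did not overlap ranged from 7 to 8 at 4 weeks and from 6 to 7 at 12 weeks over libraries left out in turn. Limbs that do not overlap stay apart when a library is left out, so such counts can only stay or rise. The lower end of these ranges was thus fixed in advance and shows no stability, and the same holds for the windows without overlap below. The counts of members that changed between weeks ranged from 1 to 5 in control and from 2 to 6 in DMM cartilage. In control cartilage DESeq2 gave 5 and a fit of the 6 control libraries 0. The share of all rows that changed between weeks is not given for these settings, so nothing about the members is read from the shifts. Partner genes called were 3 and 2 with DESeq2 at 4 and 12 weeks, 1 and 1 with the replicate number as a block, and 0 to 1 at 12 weeks over libraries left out (1 without control replicate 2). Over all rows, calls rose with the block from 16 to 354 at 4 weeks and from 1 to 734 at 12 weeks, and over libraries left out they ranged from 0 to 118 (without control replicate 3) and from 0 to 860 (without control replicate 2). The block left the members changed between weeks at 3 in control and 6 in DMM cartilage and the member cytosines called at 0, and the numbers are not known to pair animals. Deviations of same-numbered libraries correlated at 0.412, -0.452 and 0.113 at 4 weeks and at -0.679, 0.383 and -0.331 at 12 weeks for RNA. The log2 fold change of Tnfsf15 at 12 weeks ranged from -0.4501 to 0.7023 over libraries left out and was negative without DMM replicate 1, and that of Kcnj15 between weeks in control cartilage ranged from -0.1752 to 0.07559 and was positive without control replicate 1 or 2 of week 4 or control replicate 3 of week 12.

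For 5mC, member cytosines called ranged from 0 to 3 at 4 weeks and from 0 to 1 at 12 weeks over libraries left out. In the same fits 0.000346% to 0.21% and 0.129% to 0.411% of all cytosines were called. With a difference of 20 points 2 member cytosines were called at 12 weeks, where 0.674% of all were. Member windows without overlap ranged from 0 to 4 at 4 weeks and from 4 to 5 at 12 weeks over libraries left out. In the same settings 13.2% to 42.5% of all gene windows were without overlap at 4 weeks and 35.7% to 46.6% at 12 weeks. With at least 20 reads 1 member window was without overlap at 4 weeks, where 8.43% of all gene windows were. Over gene bodies alone, where only 4 member windows kept 5 cytosines, 1 was at 12 weeks, where 27.7% of all were. Without the 2 libraries of another title style 5 were at 12 weeks, where 51.1% of all were. For 5hmC, windows without overlap over both weeks were 1, 3 with at least 20 reads, and 1 to 2 over libraries left out. The share of all gene windows is not given for these alternatives of 5hmC, so nothing about the members is read from the rise. For 5mC over all gene windows, the share without overlap was 8.45% and 42.5% with and without control replicate 2 of week 4. Beside the windows lost over gene bodies, the cause of these shifts was not tested. Of all alternatives of counts, those above included, 111 kept within 1.5 times the value given and 31 did not. The 111 include counts without overlap whose lower end was fixed in advance, so they are no measure of stability. With 3 libraries a limb, no window can fall under an exact p of 0.1, and reads of Tnfsf15 and E130114P18Rik are too few to size their folds well.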

Other observations

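None of the nearest tested genes on each side of the members had an adjusted p under 0.05 by edgeR at either week, and values below are for 4 and then 12 weeks. The nearest tested gene can lie far away, and the largest distances are given. Of all genes, 10.8% at 4 weeks and 9.92% at 12 weeks were higher after DMM without overlap. Around Slitrk6, Spry2, 4850519 bp away, had log2 fold changes of 0.02 and 0.53, higher without overlap at 12 weeks. Mir17hg, 4289186 bp away on the other side, had 0.25 and -0.30. Around Fam180a, Nup205 had -0.03 and -0.56 and Mtpn 0.36 and -0.33, lower without overlap at 12 weeks. Around Lrrn4cl, Bscl2 had 0.12 and 0.13 and Ubxn1 -0.17 and 0.06, with overlap. Around Pdpn, Prdm2 and Lrrc38 had log2 fold changes of 0.09 and -1.80 at 4 weeks and of -0.02 and 0.42 at 12 weeks, with overlapping limbs. Around Pla1a, Popdc2 had -1.39 and -0.41 and Adprh -0.31 and -0.02, both lower without overlap at 4 weeks. Around Kcnj15, Dyrk1a, 562039 bp away, had -0.19 and 0.23. Erg, an endothelial and chondrocyte transcription factor, had -1.22 and 0.65, and both genes were higher without overlap at 12 weeks. Around Tnfsf15, its family member Tnfsf8 had 0.79 and -0.01 with overlap at both weeks, and Tmem268 -0.64 and -0.33, lower without overlap at both weeks. The largest difference among these neighbours at 12 weeks was that of the predicted gene Gm12695, which lies 781045 bp from E130114P18Rik, with 1.14 at 4 weeks and 2.51 at 12 weeks (adjusted p = 0.433 and 0.211, edgeR), and its DMM libraries lay above all control libraries at both weeks. On the other side of E130114P18Rik, Tm2d1, 770779 bp away, had 0.11 and 0.36 with overlap.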
